A study of Mus musculus with 15 samples.

Results

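Peripheral T cell lymphomas of mice were compared with resting, normal T cells. The comparison used 12 of the 15 samples of the series, chosen by their titles: the 9 lymphomas, called mPTCL 1 to 9, and the 3 samples of resting T cells. The other 3 samples, T cells activated in culture, entered the choice of 1 probe set per gene and 1 alternative fit with all 15 arrays, but not the main test. Their own values are given only for Hemgn. Each sample was measured on 1 oligonucleotide array. The lymphomas grew in C57BL/6 mice that lack CD3 (CD3KO), after transfer of p53KO T cells of the same strain background, and lymphoma cells were sorted from liver. Such hosts make no T cells of their own but keep other blood cells, B cells and NK cells among them. The resting T cells came from 5-week-old p53 KO mice on the C57Bl/6 background and were obtained by sorting from spleen or liver, the organ not being named for each sample. All 12 samples therefore share the absence of p53, and no sample with p53 was measured. The growth protocol given for the normal samples describes injections of PBS or of killed Streptococcus pneumoniae, given to p53-deficient mice at intervals of 2 weeks until they fell ill, and it is not stated whether the donors of these cells were among them. Neither the age of the hosts nor the surface markers used for sorting is given in the sources used here. The labels also do not say whether each sample is a different animal, so p-values rest on the spread between these samples alone, part of which may be technical.

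A resting T cell is small and quiescent. It carries the T cell receptor (TCR), in which the CD3 chains pass on the signal and CD4 or CD8 acts as coreceptor, it recirculates through lymphoid organs guided by receptors such as Ccr7 and S1pr1, and it lives on cytokines such as interleukin 7. Entry into the cell cycle depends on E2F transcription factors, which are held back by the Rb family, and on cyclins with their kinases. p53 normally stops or kills cells with damaged DNA. Peripheral T cell lymphomas are tumours of mature T cells.

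Values below 32 were raised to 32, which is 5 on the log2 scale and is called the floor here, and all levels given are log2 signals. The labelled cell type was checked against 7 T cell markers. Cd3d, Cd3g and Cd247, 3 chains of the CD3 complex, were above the floor in all 9 lymphomas, with lowest values of 8.62, 10.14 and 7.01. Their highest values there, 12.80, 13.98 and 11.40, were still below the lowest resting values of 13.47, 14.00 and 12.74. Cd5 was at 5.69 to 10.02 in lymphomas and at 12.45 to 12.70 in resting cells. Cd3e, which read 11.60, 11.45 and 11.58 in resting cells, was at the floor in mPTCL 4, at 5.68 in mPTCL 3 and at 9.03 in mPTCL 5, but between 10.85 and 12.28 in the other 6. The adhesion receptor Cd2, at 13.17 to 13.31 in resting cells, was low in mPTCL 3 (5.58), mPTCL 4 (8.82) and mPTCL 9 (9.25). Thy1, at 12.63 to 13.02 in resting cells, was low in mPTCL 9 (5.32), mPTCL 5 (6.82), mPTCL 8 (7.43) and mPTCL 4 (8.82).

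The lymphoma arrays differed far more from each other than the resting arrays did. Pearson correlations between arrays, across 11450 genes, ran from 0.744 to 0.919 among lymphomas and from 0.969 to 0.976 among resting cells. The typical gene, taken as the median, had an SD of 0.60 log2 units in the former and 0.22 in the latter. Degraded RNA raises the actin signal of 3′ probes over 5′ probes, and that ratio was 1.93 ± 0.40 (SD, n = 9) in lymphomas and 1.35 ± 0.13 (n = 3) in resting cells, and that of Gapdh was 1.85 ± 0.30 and 2.02 ± 0.18. The spiked poly-A controls read 7.94 ± 0.31 in lymphomas and 10.96 ± 1.17 in resting cells. These poly-A levels did not overlap, at 7.34 to 8.30 in lymphomas and 9.71 to 12.03 in resting cells. The version of the analysis software is named only for lymphoma arrays, and an amount of RNA (50 ng) only for normal cells. A difference in RNA preparation, array batch or software therefore cannot be told apart from the group in any comparison below.

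Markers of other blood cells set some lymphomas apart. The mean level of 14 neutrophil markers was 5.69 to 5.93 in resting cells, and in lymphomas it ran from 5.92 to 12.16 with a median of 9.91. In 5 lymphomas, mPTCL 1, 2, 4, 5 and 8, it exceeded the highest resting array by more than 2 log2 units. The mean of 19 B cell markers was 8.44 to 8.98 in resting cells and 11.22, 10.07 and 12.12 in mPTCL 1, 4 and 5, more than 1 unit above the highest resting array, but 6.39 to 8.02 in the other 6 lymphomas. Macrophage markers (16 genes) averaged 7.22 to 8.01 in resting cells and reached 10.50 in mPTCL 4. Erythroid markers (7 genes) averaged 6.95 to 7.37 and reached 10.67 and 11.14 in mPTCL 8 and 9. No marker of any of the 8 lists of other cells was at the floor in all 9 lymphomas. Comparisons were therefore repeated without the 5 lymphomas high in neutrophil markers and without the 3 high in B cell markers. In bulk samples, fewer cells of a type and less RNA per cell cannot be told apart.

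**Figure D1:**
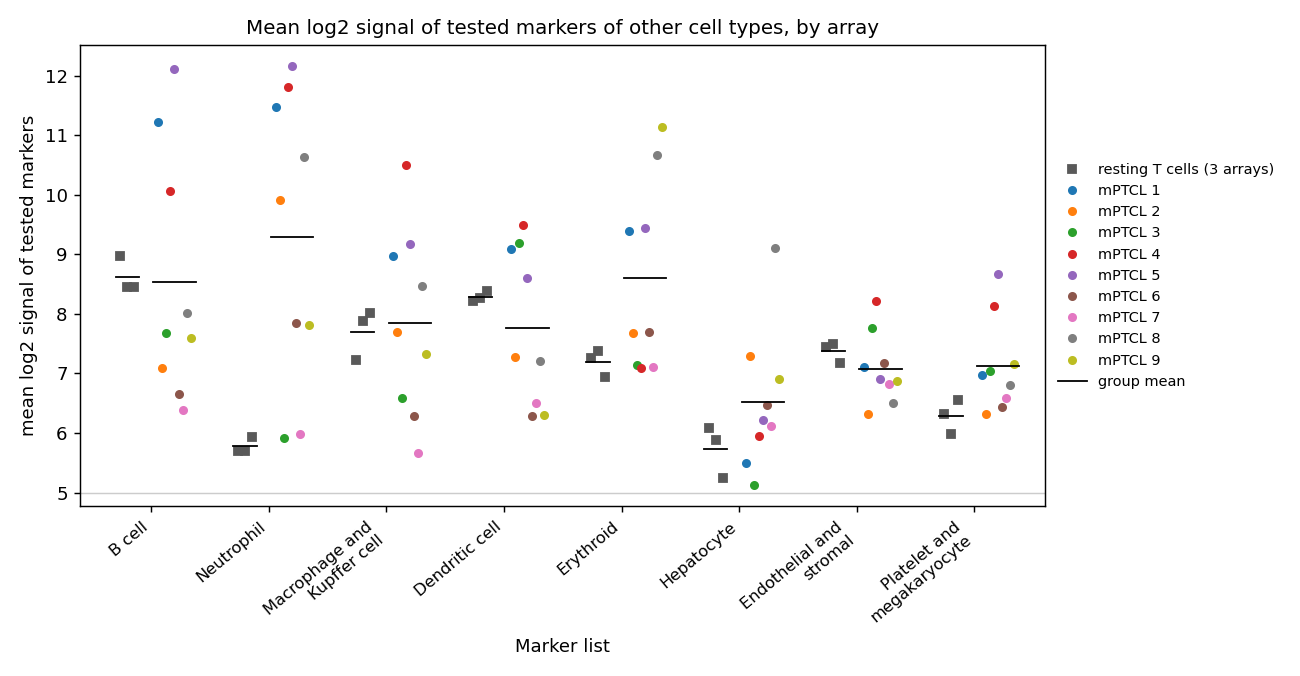
Mean log2 signal of the tested markers of other cell types, by array, with resting T cells as grey squares and each lymphoma in its own colour. Neutrophil markers reach 12.16 in mPTCL 5 and stay near the resting level in mPTCL 3 and 7, and B cell markers are above the resting arrays in mPTCL 1, 4 and 5.

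A gene was tested if it reached a signal of 100 in at least 3 of the 12 arrays, and it was called higher or lower if limma's Benjamini-Hochberg adjusted p was under 0.05 and the difference at least 2-fold. Of 11450 genes, 1644 (14.4%) were called, 840 higher (7.34%) and 804 lower (7.02%) in lymphomas, and the median difference over all genes was -0.01. Among the 840 higher genes, all 9 lymphomas lay above all 3 resting arrays for 676, where 8.68% of all genes tested did so. Among the 804 lower ones, all 9 lay below for 723, against 11.3% of all genes tested. The calls rest on the same arrays, so larger shares among called genes are partly built in. The shares over all genes, 7.34% higher and 7.02% lower, are the background for the counts per list below. A rise of 2-fold or more over the resting mean was seen in every lymphoma for 275 genes and a fall of that size for 212, so for most called genes at least 1 tumour did not reach that size. Differences of at least 8-fold were found for 145 higher and 87 lower genes. Counts depended on the few resting arrays: without resting replicate 1, 2 or 3 the calls fell to 832, 770 and 804.

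Most genes for CD3 chains and coreceptors were lower in lymphomas, and genes for the receptor's own chains were not on this list. Of the 7 genes for CD3 chains and coreceptors, 6 fell, and the median difference of the 7 was -2.75. Cd8b1, the beta chain of CD8 and the gene of this list that fell most, read 12.62, 12.60 and 12.57 in resting cells and 5.00 to 9.52 in lymphomas, with a median of 5.77. All 9 lymphomas were below the resting arrays and 1 was at the floor, which makes Cd8b1 at least 63.7-fold lower (-5.99 ± 0.81 log2 units, SE, adjusted p = 0.000435). Cd8a read 12.96, 13.31 and 13.06 in resting cells and 7.91 to 13.13 (median 8.60) in lymphomas, a difference of -3.50 ± 0.92 (adjusted p = 0.0200). Its level in mPTCL 9 was inside the resting range, and the other 8 lymphomas were below it. Cd4 read 11.75, 11.68 and 11.37 in resting cells and was at the floor in mPTCL 4, 7, 8 and 9, and at least 22.1-fold lower overall (adjusted p = 0.0253). The highest Cd4 levels among lymphomas were 10.50 in mPTCL 2 and 10.15 in mPTCL 6. Cd3d fell by 2.75 ± 0.70 (adjusted p = 0.0172), and Cd3e did not pass (-1.79 ± 1.38, adjusted p = 0.383). Without any 1 of the 3 resting arrays only 1 of the 6 calls was left, and without the 5 lymphomas high in neutrophil markers 3 were; the calls of Cd4, Cd8a and Cd3d were among those lost without a resting array.

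Regulators that act beside the receptor fell as well. Of 43 genes of TCR signalling, 11 were lower and the median difference was -1.36. For 20 of the 43 no lymphoma reached a resting level, against 11.3% of all genes tested. Cd5, a receptor that dampens TCR signals, read 12.59, 12.70 and 12.45 in resting cells and 5.69 to 10.02 (median 7.04) in lymphomas, 45.3-fold lower (-5.50 ± 0.73, adjusted p = 0.000387). Its relative Cd6 read 11.44, 11.81 and 11.07 and 5.00 to 8.44 (median 6.35), at least 28.1-fold lower. The highest Cd5 level among lymphomas, in mPTCL 3, was still more than 2 units below resting cells, and Cd6 was at the floor in 3 lymphomas. Cd28, the costimulatory receptor, read 12.61, 12.45 and 12.82 against 5.00 to 11.32 (median 7.78), at least 22.8-fold lower (adjusted p = 0.00671). Dgka, a kinase that removes the second messenger diacylglycerol, fell by 4.15 ± 0.49 (17.7-fold, adjusted p = 0.000200) and was low in all 9 lymphomas (8.77 to 11.71 against 14.44 to 14.62). These 4 genes were called in every alternative run, while without any 1 resting array 7 members of the list were called lower. The kinase Zap70 did not pass (-2.41 ± 1.11, adjusted p = 0.143), since its levels of 5.60 in mPTCL 3 and 7.64 in mPTCL 4 stood beside 9.18 to 11.83 in the other 7, all below the resting arrays. The adaptor Lat did not pass either (3.99-fold lower, adjusted p = 0.104).

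Transcription factors of naive T cells fell in 11 of 29 cases, with a median difference of -1.04. Lef1, a partner of beta-catenin needed for T cell development, read 13.85, 13.52 and 13.73 in resting cells and 7.80 to 11.11 (median 10.13) in lymphomas, 14.6-fold lower (-3.87 ± 0.61, adjusted p = 0.00110). Every lymphoma was more than 2 units below the resting arrays. Klf3 (-3.08 ± 0.80), the E protein inhibitor Id3 (-2.95 ± 0.69), and Bach2 (-2.74 ± 0.60), a repressor that holds back effector differentiation, were lower too. Bcl11b, which maintains T cell identity, read 14.02, 13.82 and 13.95 against 7.66 to 13.24 (median 11.64). It was lowest in mPTCL 5 and the call was close to the threshold (-2.69 ± 0.88, adjusted p = 0.0493). Klf2, which drives the expression of exit receptors, lay below the resting arrays in all 9 lymphomas but did not pass (-2.24 ± 0.83, adjusted p = 0.0752). The number of lower members fell to between 2 and 3 without any 1 resting array. The calls of Klf3 and Bcl11b were lost without each of the resting arrays in turn, that of Id3 without resting replicate 1 or 3, that of Bach2 without resting replicate 2, and that of Bcl11b also without mPTCL 1, 2, 6, 8 or 9 (adjusted p up to 0.152), while Lef1 was called in every alternative. Bcl11b was also not called without the lymphomas high in neutrophil markers. All 8 measured Gimap genes, GTPases that support lymphocyte survival, had lower means in lymphomas, from -2.36 for Gimap8 to -0.46 for Gimap9. For 5 of the 8, against 11.3% of all genes tested, all 9 lymphomas lay below the resting arrays. None of the 8 passed limma's test, although 5 had an unadjusted p under 0.05. Without mPTCL 5, 7 or 9 the test called 2 Gimap genes lower, and without mPTCL 1, 2 or 4 it called 1. It called 4 with quantile normalization, 4 with all 15 arrays in 1 fit and 5 with array weights per group.

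Of 30 homing, exit and chemokine receptors, which guide recirculation, 4 fell (13.3%, beside 7.02% of all genes tested). The other 26 were not called, and the median difference was -1.01. Ccr7, the receptor for entry into lymph nodes, read 13.40, 13.30 and 13.46 in resting cells and 5.00 to 10.40 (median 7.47) in lymphomas, at least 82.2-fold lower (adjusted p = 0.00188). It was at the floor in mPTCL 2, 6, 7 and 9. S1pr1, the receptor for exit from lymphoid organs, read 12.53, 12.64 and 12.56 against 6.16 to 10.36 (median 8.00), 20.4-fold lower, and S1pr4 of the same family fell by 2.57 ± 0.42 (5.95-fold, adjusted p = 0.00130). No lymphoma reached a resting level of either receptor. The integrin chain Itgb3 (-2.18 ± 0.71, adjusted p = 0.0472) also passed, but not without any 1 of the resting arrays or without mPTCL 1, 2, 4, 7 or 8. With all lymphomas high in B cell markers left out, 9 members fell, and 7 did without those high in neutrophil markers or without mPTCL 1 alone. Ccr9 (-4.23), Cxcr6 (-4.07) and Gpr183 (-3.38) had large differences that did not pass, and they are given here because of their size.

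Cytokine receptors fell in 8 of 25 cases (median difference -0.74). Il6st, the gp130 chain shared by receptors of the interleukin 6 family, read 12.91, 12.79 and 12.41 in resting cells and 6.15 to 9.45 (median 8.62) in lymphomas, 24.7-fold lower (-4.63 ± 0.61, adjusted p = 0.000386). Its partner Il6ra fell by 4.17 ± 0.88 (18.0-fold, adjusted p = 0.00641), and Tgfbr3, a coreceptor for TGF-beta, was at least 11.6-fold lower (adjusted p = 0.00160). All 3 were below the resting arrays in every lymphoma and were called in every alternative. Il7r, the interleukin 7 receptor chain, read 13.71, 13.77 and 13.87 against 5.01 to 13.42 (median 8.60). The lymphomas spanned nearly the whole scale here, from 13.42 in mPTCL 3 and 12.71 in mPTCL 4 to 5.01 in mPTCL 7 (-4.78 ± 1.47, adjusted p = 0.0389). The Il7r call was lost without any 1 resting array, without mPTCL 2, 6, 8 or 9, and without the lymphomas high in neutrophil markers, with adjusted p up to 0.127, and 5 members of the list fell without any 1 resting array. Il2rb, a chain of the interleukin 2 and 15 receptors, was at a similar mean in both groups (-0.19 ± 0.61).

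The kinases and factors downstream of these receptors moved both ways. Of 21 JAK, STAT, SOCS and Pim genes, 5 fell (23.8%) and 2 rose (9.52%), with a median of -0.94. The shares over all genes tested were 7.02% and 7.34%. Jak1 read 13.87, 13.79 and 13.68 in resting cells and 11.78 to 12.98 in lymphomas (-1.37 ± 0.26, adjusted p = 0.00373), and Jak3 read 9.93, 10.93 and 10.32 and 8.27 to 9.36 (-1.58 ± 0.27, adjusted p = 0.00179). Both kinases lay below the resting arrays in all 9 lymphomas. Stat5b (-2.17 ± 0.47) and Pim2 (-1.72 ± 0.44) fell, as did Stat6 (-1.30), named because the count is small. Pim3, a kinase that supports survival and growth, rose by 2.01 ± 0.42 (4.01-fold, adjusted p = 0.00634), and Pias3 by 1.09 ± 0.32. The higher calls of both were lost without the lymphomas high in neutrophil markers. Without any 1 resting array, 2 to 3 members of the list fell and 1 rose; the calls of Pim2 and Pias3 were lost without each resting array, that of Pias3 also without mPTCL 8, and that of Stat5b without resting replicate 1.

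Members of the TNF family that T cells use for help and survival fell in 5 of 25 cases (median -1.01). Cd27, a costimulatory receptor, read 11.01, 11.07 and 10.82 in resting cells and 5.00 to 10.03 (median 7.64) in lymphomas, at least 10.9-fold lower (adjusted p = 0.00758). Cd40lg, the helper signal to B cells, was at least 9.44-fold lower, with 4 lymphomas at the floor (adjusted p = 0.0175). The death domain receptor Tnfrsf25, the adaptor Traf1 and, outside the naming rule, the ligand Tnfsf8 (-2.73) made up the rest. Of the 5, 1 was still called without any 1 resting array, the calls of Cd40lg, Tnfrsf25 and Traf1 being lost each time. Interferon response genes fell in 8 of 36 cases, with a median of -1.10. Usp18, which shuts off interferon receptor signals, read 10.83, 11.03 and 10.83 against 5.72 to 9.25 (median 7.47), 10.9-fold lower (-3.45 ± 0.69, adjusted p = 0.00498). Ifit1, an RNA sensor, read 11.27, 11.09 and 11.11 and 5.75 to 10.28, and Ifi27l2a fell by 3.77 ± 0.86. mPTCL 1 and 3 had the highest Usp18 and Ifit1 among lymphomas and mPTCL 5 the lowest. Without any 1 resting array 2 to 3 interferon response genes fell; Ifit1 was lost each time and Ifi27l2a without resting replicate 1 or 3, 5 fell without mPTCL 2, 6 or 8, and 13 without the lymphomas high in B cell markers.

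The largest decreases of all included genes outside these lists. Tdrp, a gene known from the testis, read 11.67, 12.03 and 12.03 in resting cells and was at the floor in 6 lymphomas, at least 105-fold lower (adjusted p = 1.31e-07). Tmie and Dapl1 were at the floor in all 9 lymphomas, against 11.18 to 11.42 and 10.78 to 11.02 in resting cells, which makes them at least 78.6-fold and 58.6-fold lower. All 9 lymphomas were below the resting arrays for these 3 genes. Als2cl (29.4-fold), the folate receptor family member Izumo1r (at least 33.3-fold), Sidt1 (at least 28.7-fold), the ganglioside synthase St8sia1 (at least 24.9-fold) and Slfn1 (at least 26.2-fold), a gene of quiescent T cells, fell in every lymphoma and were called in every alternative run, except that the fit without probe sets that match several transcripts gave Izumo1r no value. Igfbp4, which binds insulin-like growth factors, was 61.7-fold lower but still at 12.38 in mPTCL 3. Nsg2 was 28.1-fold lower, with 12.74 in mPTCL 3 and 11.66 in mPTCL 4, and its call was lost without any 1 resting array.

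Genes of cell division rose in large numbers. Of the 20 E2F, Rb and MuvB factors, which switch cell cycle genes on and off, 19 were tested and 7 rose, with a median of 0.75. E2f8, an atypical E2F that represses E2F targets late in the cycle, read 6.03, 6.31 and 5.00 in resting cells and 10.32 to 12.21 (median 11.61) in lymphomas. All 9 lymphomas were more than 4 units above every resting array, and E2f8 was at least 51.4-fold higher (5.68 ± 0.44, adjusted p = 1.50e-05). Tfdp1, the partner with which E2F proteins bind DNA, rose from 9.50, 9.73 and 10.12 to between 11.17 and 12.35 (2.07 ± 0.27, 4.19-fold, adjusted p = 0.000368). E2f1 (1.57), E2f2 (2.18), E2f7 (2.28), Mybl2 (1.88) and Rb1 (1.05) were also called higher. The repressor E2F genes E2f4 (-0.38) and E2f6 (-0.43), unlike the repressor E2f8, and the pocket protein gene Rbl2 (-1.07), unlike Rb1, did not pass. Without any 1 resting array 3 to 4 of the 7 were called; E2f2 and E2f7 were lost each time, and E2f7 (adjusted p = 0.0483, up to 0.213) also without mPTCL 1, 2, 5, 6, 7, 8 or 9. E2f8 and Tfdp1 were called in every alternative.

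Because E2F sites mark promoters of this class, 300-base promoter windows from RefSeq (GRCm38.p6, from 250 bases before to 50 after the gene's start) were searched on both strands for 2 exact E2F motifs, TTTCCCGC and TTTGGCGC. Of 93 called-higher cell cycle and DNA repair genes with a window, 12 (12.9%) held a motif. Of the 54 tested members of the same 5 lists that were not called higher, 16 (29.6%) did, a larger share than among the called ones. Among all 9323 tested genes with a window 333 (3.57%) did, and of all 32851 windows 514 (1.56%). Of called members with a window the count was 2 of 6 for the E2F, Rb and MuvB list, 0 of 6 for G1 genes, 6 of 24 for replication, 3 of 43 for mitosis and 1 of 14 for repair. Of all tested members it was 4 of 14, 3 of 17, 11 of 37, 3 of 48 and 7 of 31 in the same order. The match is a description of the letters in these windows. Stretches of 100 bases are shown for the 4 called genes with the largest increases among those with a motif wholly before the gene's start. Genes on 1 chromosome were left out of this choice. Each stretch is on the strand of the gene, with the motif or its reverse complement in capitals. Cdc6 lies at chr11:98907967-98908066 (+), Ncapd2 at chr6:125191587-125191686 (-), Pola1 at chrX:93632240-93632339 (-) and E2f7 at chr10:110745195-110745294 (+).
Cdc6: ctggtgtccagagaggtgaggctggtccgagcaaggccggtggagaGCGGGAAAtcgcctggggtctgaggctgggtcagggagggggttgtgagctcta
Ncapd2: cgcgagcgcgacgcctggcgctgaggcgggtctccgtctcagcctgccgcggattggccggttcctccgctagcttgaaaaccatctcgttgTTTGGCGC
Pola1: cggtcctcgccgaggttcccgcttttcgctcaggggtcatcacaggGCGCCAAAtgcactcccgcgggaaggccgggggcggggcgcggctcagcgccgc
E2f7: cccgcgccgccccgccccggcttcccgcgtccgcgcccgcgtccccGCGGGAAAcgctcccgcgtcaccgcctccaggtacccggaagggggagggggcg

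Of the genes whose promoters are shown, Cdc6, which loads the replicative helicase onto DNA, rose by 3.50 ± 0.65 (11.3-fold, adjusted p = 0.00312). It read 6.87, 6.77 and 6.53 in resting cells and 8.36 to 11.38 (median 10.68) in lymphomas, lowest in mPTCL 4 and 5. Pola1, the catalytic subunit of the priming polymerase, rose by 2.54 ± 0.51 (adjusted p = 0.00523), and Ncapd2, a condensin subunit, by 2.68 ± 0.51 (adjusted p = 0.00345).

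Among 21 genes of the G1 phase, 7 rose and the median was 1.27. Cks1b, a small subunit that helps the SCF ligase remove a CDK inhibitor, read 10.63, 10.16 and 10.27 in resting cells and 13.09 to 14.95 (median 14.46) in lymphomas, 15.2-fold higher (3.93 ± 0.35, adjusted p = 3.49e-05). Ccne2, a cyclin of S phase entry, rose by 3.55 ± 0.51 (11.7-fold, adjusted p = 0.000601), with its highest level, 11.86, in mPTCL 9. The INK4 inhibitor Cdkn2c rose as well, from 9.06, 9.09 and 9.14 to between 10.75 and 12.55 (2.38 ± 0.32, adjusted p = 0.000460). All 3 genes were above the resting arrays in all 9 lymphomas and were called in every alternative. Another INK4 locus gene, Cdkn2a, split the tumours: it read 5.30, 5.97 and 5.10 in resting cells, 5.00, 5.00 and 5.27 in mPTCL 3, 4 and 5, and 8.57 to 10.48 in the other 6, and did not pass (2.58 ± 1.22, adjusted p = 0.155). Cyclin D2 (Ccnd2) was below the resting arrays in all 9 lymphomas but did not pass (-1.56 ± 0.53, adjusted p = 0.0562).

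DNA replication genes rose in 30 of 44 cases with a median of 1.53. Tk1, thymidine kinase, read 6.16, 7.01 and 6.63 in resting cells and 9.17 to 11.77 (median 11.05) in lymphomas, 18.5-fold higher (4.21 ± 0.49, adjusted p = 0.000191). Rrm2, the ribonucleotide reductase subunit that limits the supply of deoxynucleotides, rose by 3.24 ± 0.46 (9.46-fold), and Pole, a leading strand polymerase, by 3.32 ± 0.40 (adjusted p = 0.000227). Every lymphoma exceeded the resting arrays for these 3 genes, and mPTCL 4 had the lowest level of each. Pcna, the sliding clamp, differed by only 0.29 and was not called. Between 19 and 20 of the replication genes were called when a resting array was left out.

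Mitosis genes had the largest share of calls among the 32 lists, with 51 of 57 higher and a median of 3.35. Espl1, the protease separase that parts sister chromatids, read 5.78, 5.84 and 5.49 in resting cells and 8.36 to 12.02 (median 10.61) in lymphomas, 24.5-fold higher (4.61 ± 0.69, adjusted p = 0.000864). The condensin subunit Ncapg rose 20.6-fold (4.36 ± 0.54, adjusted p = 0.000264), and the kinase Aurkb at least 17.3-fold (4.12 ± 0.55, adjusted p = 0.000409). Sgo1, the protector of centromeric cohesion, was at least 18.7-fold higher, and the cohesion factor Cdca5 21.8-fold higher (adjusted p = 3.49e-05). Mki67, a marker of cycling cells, read 9.83, 10.23 and 9.54 against 11.84 to 14.16 (median 13.70), 11.6-fold higher. The rise was smallest in mPTCL 4, where the median over the 57 genes was 1.68, and largest in mPTCL 2, where it was 4.26. The 6 members that were not called were Kif23 (-0.58), Smc4 (-0.45), Pttg1 (-0.19), Cdc25b (0.20), Racgap1 (1.24) and Kifc1 (1.34). Between 48 and 49 members were called without any 1 resting array, and 51 both without the lymphomas high in neutrophil markers and without those high in B cell markers.

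**Figure D2:**
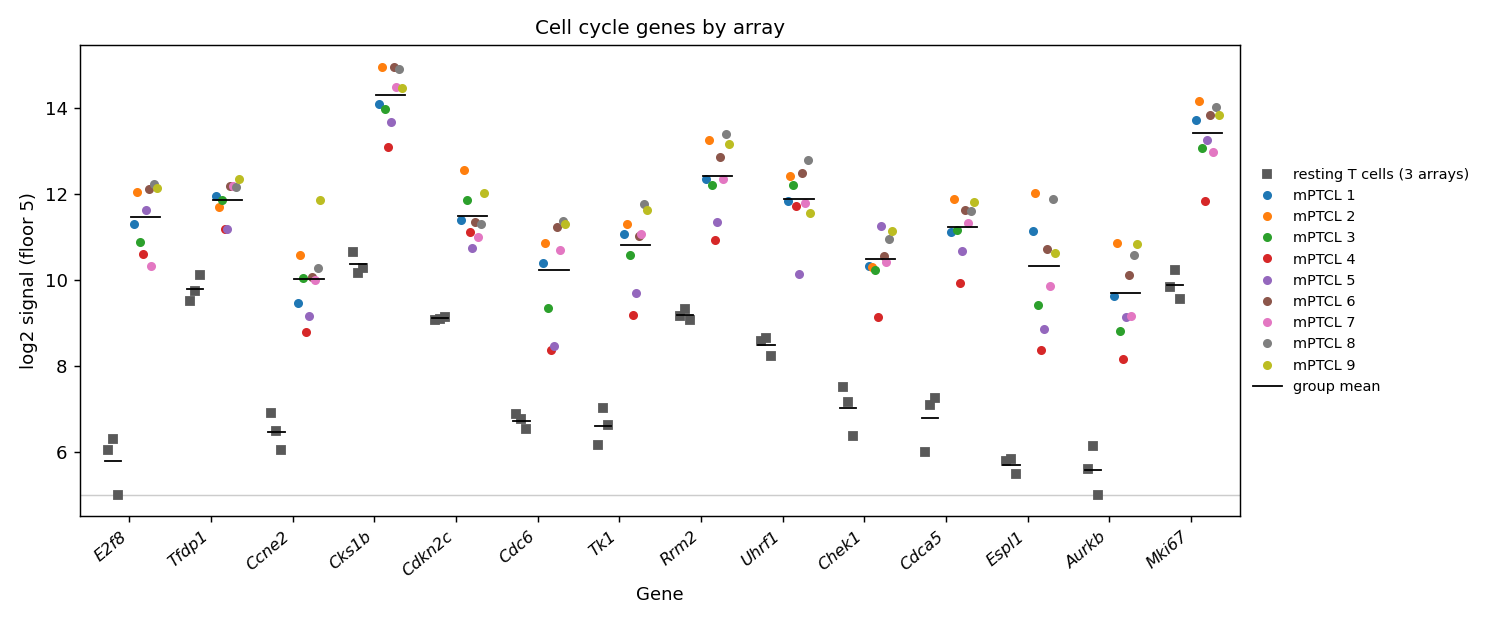
Log2 signal (floor 5) of cell cycle genes by array, with resting arrays as grey squares, lymphomas in colour and a bar at each group mean. Every lymphoma is above every resting array for all 14 genes, and mPTCL 4 is at or near the lower end for most of them.

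DNA repair and checkpoint genes rose in 18 of 37 cases (median 1.32). Trip13, an ATPase of the spindle checkpoint and of recombination, read 8.24, 7.60 and 8.30 in resting cells and 10.61 to 13.16 (median 12.43) in lymphomas, 16.8-fold higher. The nuclease Exo1 (15.4-fold) and the checkpoint kinase Chek1 (3.46 ± 0.39, 9.13 to 11.24 in lymphomas) were also higher in all 9 lymphomas. These 3 were called in every alternative. The apical kinases Atm (-0.85) and Atr (-0.37) were not called. Removal of a resting array left 11 to 15 members called.

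Of 26 enzymes of DNA methylation and Polycomb silencing 3 were higher and 3 lower, beside 7.34% and 7.02% of all genes tested, with a median of -0.21; shares this near the background are no result about the list. Uhrf1, which brings the maintenance methyltransferase to replicated DNA, read 8.57, 8.64 and 8.23 in resting cells and 10.13 to 12.77 (median 11.83) in lymphomas, 10.5-fold higher (3.39 ± 0.43, adjusted p = 0.000282). Its relative Uhrf2 went the other way, from 10.41, 10.47 and 10.47 to between 8.44 and 9.35 (-1.53 ± 0.23, adjusted p = 0.000950), and was not called with the mean of its probe sets (adjusted p = 0.123). Neither gene overlapped between the groups. The remodeller Hells rose by 2.51 ± 0.34 and the methyltransferase Dnmt3b by 1.49 ± 0.41, while Dnmt1 differed by -0.15. The Polycomb subunits Cbx7 (-1.72 ± 0.47) and Ezh1 (-1.01 ± 0.31) fell. Ezh2, the Polycomb methyltransferase of dividing cells, was above the resting arrays in 7 lymphomas and did not pass (1.38 ± 0.56, adjusted p = 0.105). The calls of Dnmt3b, Cbx7 and Ezh1 were lost without any 1 resting array, and that of Ezh1 also without mPTCL 1, 2, 6 or 8 (adjusted p up to 0.137); Hells and Uhrf1 were called in every alternative.

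Known targets of p53 were measured in cells that all lack it; the deleted gene itself is not analysed here. Of 27 targets, 3 were higher (11.1%) and 4 lower (14.8%), beside 7.34% and 7.02% of all genes tested, with a median of -0.11. Cdkn1a, the CDK inhibitor p21, read 6.53, 6.22 and 6.68 in resting cells and 7.12 to 9.27 (median 8.52) in lymphomas, 3.80-fold higher (1.93 ± 0.47, adjusted p = 0.0137). Dcxr, a carbonyl reductase, rose from 5.11, 6.13 and 6.69 to between 7.28 and 10.29 (3.35 ± 0.55, 10.2-fold, adjusted p = 0.00150), and the membrane protein gene Perp was at least 5.99-fold higher (adjusted p = 0.0189). All 9 lymphomas were above the resting arrays for these 3. The antiproliferative gene Btg2 (-1.30 ± 0.38), the ribonucleotide reductase subunit Rrm2b (-1.14 ± 0.33), the repair nuclease Ercc5 (-1.23 ± 0.39) and, outside the naming rule, Def6 (-1.09) fell. The calls of Cdkn1a, Perp, Btg2, Rrm2b and Ercc5 were lost without any 1 resting array. Those of Rrm2b and Ercc5 were also lost without mPTCL 6, and that of Ercc5 without mPTCL 1, 2, 7, 8 or 9 (adjusted p up to 0.165). Dcxr was called in every alternative. Of 27 survival and death genes, 1 rose and 1 fell (3.70% each, below those background shares). The BH3-only gene Hrk rose (at least 2.72-fold). Casp8 fell (-1.19 ± 0.28), and its call was lost without any 1 resting array. Bcl2, the founding survival gene, ranged from 5.71 in mPTCL 2 to 13.84 in mPTCL 7, around the resting levels of 12.74, 12.48 and 11.89.

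Metabolic lists moved up in small part. Glycolysis and lactate genes rose in 5 of 21 cases (median 0.54). Slc16a3, the lactate exporter, read 6.74, 5.93 and 6.57 in resting cells and 8.26 to 10.59 (median 8.96) in lymphomas, 7.21-fold higher (2.85 ± 0.45, adjusted p = 0.00109). Tpi1, triose phosphate isomerase, rose 4.99-fold (2.32 ± 0.46), hexokinase Hk2 4.31-fold, the glucose transporter Slc2a1 3.25-fold and, outside the naming rule, Pgam1 by 1.05 log2 units. All 9 lymphomas were above the resting arrays for the first 4 of these genes. The count was 3 without any 1 resting array and 3 without the lymphomas high in neutrophil markers, the calls of Hk2 (adjusted p = 0.0502) and Slc2a1 being lost. Genes of the respiratory chain and TCA cycle rose in 6 of 36 cases and fell in 1 (median 0.57). Uqcrfs1, the iron-sulphur subunit of complex III, read 11.04, 10.71 and 10.78 against 11.69 to 12.45 (1.16 ± 0.18, adjusted p = 0.00116), and the complex I subunit Ndufa8 rose by 1.14 ± 0.18. Ogdh, an enzyme of the cycle, fell by 1.41 ± 0.36. The number of higher genes in this list was 2 to 4 without any 1 resting array, 11 without the lymphomas high in neutrophil markers and 13 without those high in B cell markers, and the call of Ogdh was lost without resting replicate 1 or 2.

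Biosynthesis genes gave few calls that rested on all arrays. Of 26 genes of serine, one-carbon and nucleotide synthesis, 4 rose and 1 fell (median 0.60). Psat1, of serine synthesis, read 10.79, 10.66 and 10.85 in resting cells and 10.59 to 13.42 (median 12.92) in lymphomas (1.82 ± 0.49, adjusted p = 0.0223), with only mPTCL 4 below resting cells. Phgdh of the same pathway rose 2.15-fold and the purine enzymes Pfas and Gmps by 1.47 ± 0.39 and 1.06 ± 0.33, while Prps2 fell by 1.06 ± 0.30. None of these 5 calls was kept without any 1 resting array, at adjusted p up to 0.0956 for Pfas, 0.0886 for Phgdh and 0.0951 for Psat1. Those of Gmps, Phgdh and Prps2 were also lost without mPTCL 2, 6, 7, 8 or 9, without mPTCL 8 and without mPTCL 5, in that order, and 9 members of the list rose without mPTCL 4, 2 without mPTCL 8 and 11 without the lymphomas high in B cell markers. Of 26 genes of cholesterol and fatty acid synthesis 3 rose (median 0.75), beside 7.34% of all genes tested. A share this near the background is no result about the list or about fatty acid synthesis. The 3 genes were Acly (1.43 ± 0.39), Scd2 (1.43 ± 0.42) and Acaca (1.07 ± 0.26), all of fatty acid synthesis. Acly and Scd2 were not called without any 1 resting array, nor Acaca without resting replicate 1 or 3 or mPTCL 2, and 5 members rose without mPTCL 5. Of 19 transporters 2 rose (10.5%) and 1 fell (5.26%), beside 7.34% and 7.02% of all genes tested. The amino acid transporter Slc7a5 (1.25 ± 0.35) and the transferrin receptor Tfrc (1.11 ± 0.31) rose and the iron transporter Slc11a2 (-1.56 ± 0.44) fell. These calls too were lost without any 1 resting array and, for Tfrc, without mPTCL 3. Those of Slc7a5 and Tfrc were also lost without the lymphomas high in neutrophil markers. Tfrc is on the list of erythroid markers as well.

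Of 35 genes of the Myc network and ribosome biogenesis, 3 rose (8.57%) and 1 fell (2.86%), with a median of 0.40. The shares over all genes tested were 7.34% and 7.02%. Max, the obligate partner of Myc, read 10.70, 10.73 and 10.47 in resting cells and 8.23 to 9.79 (median 8.55) in lymphomas (-1.95 ± 0.33, adjusted p = 0.00177), in every lymphoma and in every alternative. Myc itself was higher in 7 lymphomas and lower in mPTCL 4 and 5, and did not pass (0.97 ± 0.59, adjusted p = 0.264). Mxd3 (2.23 ± 0.51), ornithine decarboxylase Odc1 (1.36 ± 0.37) and Rrs1 (1.12 ± 0.24) rose; Odc1 was not called without any 1 resting array, Mxd3 without resting replicate 1 or 3 and Rrs1 without resting replicate 3. Without the lymphomas high in B cell markers 11 members rose, without mPTCL 5 alone 7, and without mPTCL 4 or 9 it was 5. Proteasome and protein folding genes rose in 7 of 36 cases (median 0.46), and all 7 were subunits of the proteasome. Psma5, of the core particle, read 12.32, 11.93 and 12.28 in resting cells and 12.96 to 14.03 (median 13.46) in lymphomas (1.27 ± 0.24, adjusted p = 0.00324), and Psmb3 rose by 1.32 ± 0.29. No lymphoma overlapped with resting cells for either, and 1 to 4 members were called without any 1 resting array, Psmb3 being lost without resting replicate 2.

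Of 24 transcription factors of effector and innate-like T cells, 3 (12.5%) rose, beside 7.34% of all genes tested, and the median was 0.83. Bhlhe40, a regulator of effector cytokines, read 7.23, 6.54 and 5.00 in resting cells and 8.96 to 12.03 (median 10.55) in lymphomas, at least 20.1-fold higher (4.33 ± 0.57, adjusted p = 0.000387) and above resting cells in all 9. Id2, an E protein inhibitor of effector and NK cells, rose by 1.42 ± 0.38 and Runx3 by 1.05 ± 0.31. Both calls were lost without any 1 resting array and without the lymphomas high in neutrophil markers, and that of Runx3 also without mPTCL 2 or 9 (adjusted p up to 0.127). Zbtb16, which encodes PLZF of innate-like T cells, was between 5.62 and 10.19, highest in mPTCL 9, and did not pass (0.91 ± 0.80).

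Of 20 cytotoxic granule genes, 2 (10%) rose, beside 7.34% of all genes tested, and the median was 0.22. A share this near the background is no result about the list. Gzma, the serine protease granzyme A, read 10.44, 10.71 and 9.97 in resting cells and 10.45 to 15.59 (median 14.99) in lymphomas, 17.3-fold higher (4.11 ± 0.87, adjusted p = 0.00653). It was above resting cells in 8 lymphomas and within their range in mPTCL 5. The lysosomal membrane gene Lamp2 rose by 2.18 ± 0.36, but not without probe sets that match several transcripts (adjusted p = 0.0639). Gzmb spanned 6.89 in mPTCL 4 to 15.17 in mPTCL 6 and did not pass (3.52 ± 1.65, adjusted p = 0.153). Of 16 NK cell receptor genes 1 (6.25%) rose, also near the background. This was Cd244a, a SLAM family receptor that is also on the checkpoint list (at least 18.7-fold, adjusted p = 0.0489). It was highest in mPTCL 9 (13.05) and overlapped with resting cells in mPTCL 7 (5.32), and the call was lost without any 1 resting array and without mPTCL 1, 2, 3, 4, 8 or 9 (adjusted p up to 0.159). Of 24 checkpoint receptors 1 (4.17%) fell, beside 7.02% of all genes tested. That was Vsir, by 1.70 ± 0.42, but not without resting replicate 1 or 2. Without mPTCL 2, 7 or 9, 2 checkpoint receptors fell. The number was 5 both without the lymphomas high in neutrophil markers and without those high in B cell markers.

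The NK cell receptor list separated the tumours from each other. Its median difference from the resting mean was 2.02, 3.30, 2.79, 3.34 and 1.65 in mPTCL 1, 2, 6, 8 and 9, and -0.71, -0.24, -0.24 and -0.47 in mPTCL 3, 4, 5 and 7. Single members did not all follow this split. Klrk1, the NKG2D receptor, read 9.18, 9.14 and 8.55 in resting cells and 12.30 to 13.13 in mPTCL 2, 6 and 8. It was at 9.48 and 9.87 in mPTCL 1 and 4. In mPTCL 3, 5, 7 and 9 it was at 5.66 to 7.48, below all resting levels. Klrd1 (CD94) read 13.14, 13.06 and 13.45 in resting cells and 5.71 to 14.46 in lymphomas, above them in mPTCL 2, 6, 8 and 9. It was below all resting levels in the others, mPTCL 1 (10.38) among them. The signalling adaptor Tyrobp was above 11 in mPTCL 1, 2, 3, 4, 5, 8 and 9 and below all resting levels in mPTCL 6 and 7, and did not pass (3.94 ± 1.49, adjusted p = 0.0801). The neutrophil marker mean was above resting cells in 6 of those 7 lymphomas but not in mPTCL 3. It was also above them in mPTCL 6 (7.85) and, barely, in mPTCL 7 (5.99 against at most 5.93). The part of neutrophils in the Tyrobp level was not tested. Plcg2, a phospholipase used by B cells, NK cells and myeloid cells, was unlike these receptors in being high everywhere: it read 8.07, 8.86 and 8.32 in resting cells and 10.30 to 13.57 (median 12.62) in lymphomas, 15.0-fold higher (3.91 ± 0.50, adjusted p = 0.000333) and called in every alternative. The part of such cells in its level was not tested beyond leaving lymphomas out.

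**Figure D3:**
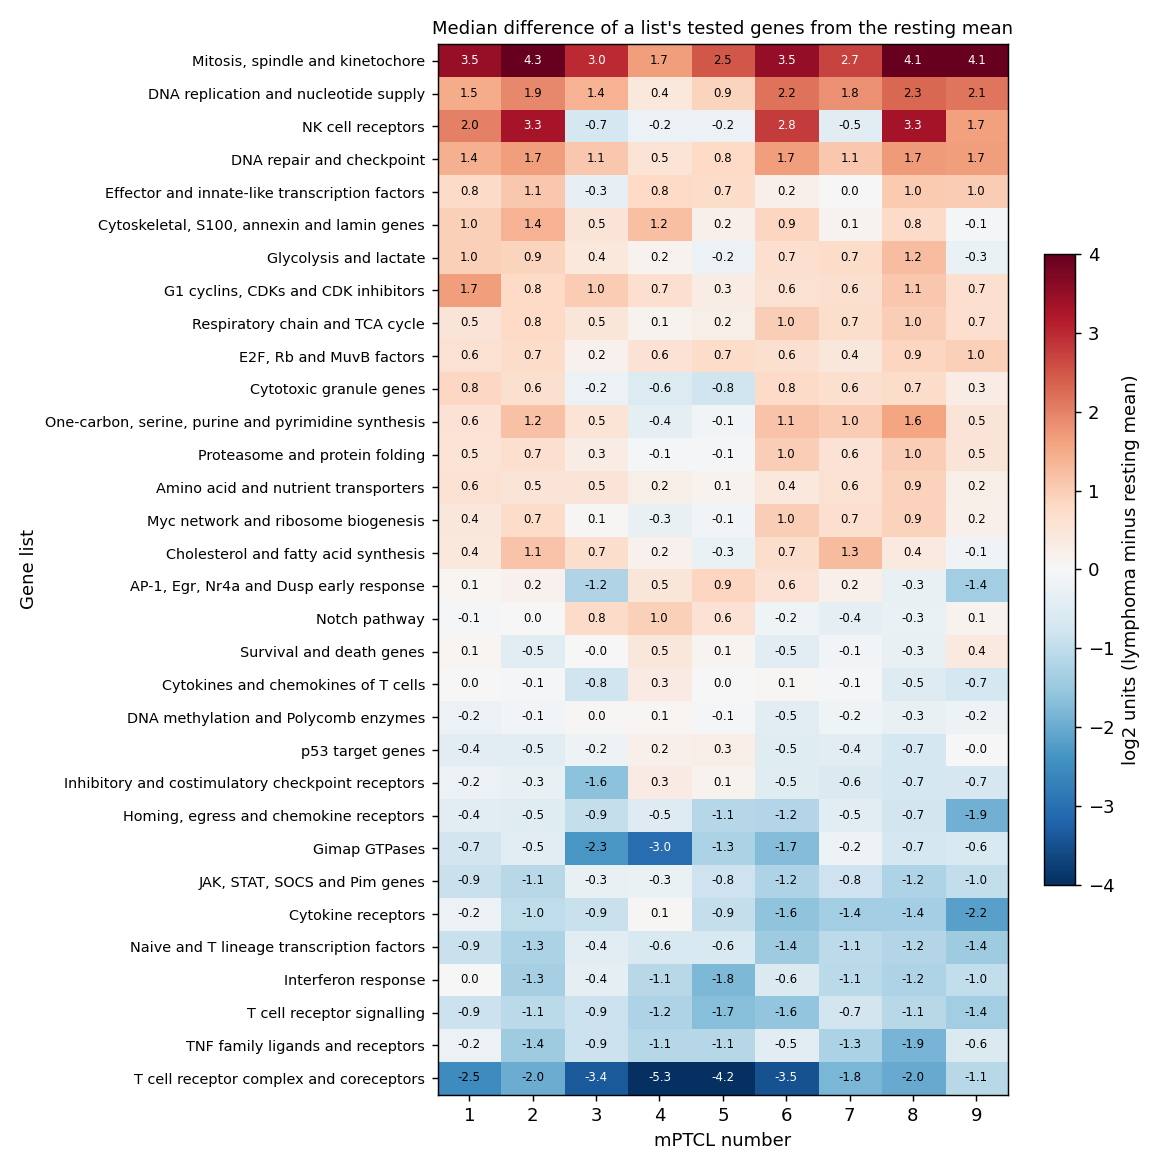
Median log2 difference from the resting mean over the tested members of each list (rows), in each lymphoma (columns), on a colour scale that ends at 4 units in either direction, so that -5.28 for TCR complex genes in mPTCL 4 lies beyond it. Mitosis and replication lists are raised in all 9 lymphomas, and the NK cell receptor list is raised in mPTCL 1, 2, 6, 8 and 9.

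Of 34 genes of cell shape, membrane repair and the nuclear lamina, 11 were higher and 3 lower (median 0.28). Anxa1, a calcium-dependent membrane-binding protein, read 7.33, 8.09 and 7.42 in resting cells and 9.73 to 13.09 (median 11.98) in lymphomas, 16.5-fold higher (4.04 ± 0.68, adjusted p = 0.00174). Lgals3, galectin 3, rose 26.0-fold (4.70 ± 0.90), from 7.15, 7.08 and 6.48 to between 8.86 and 13.68. The tubulin gene Tubb6 was at the floor in all 3 resting arrays and at 6.58 to 11.41 in lymphomas, at least 18.0-fold higher (adjusted p = 0.00580). Lamin A (Lmna) rose by 3.57 ± 0.82 and was highest in mPTCL 2 and 6. The calponin Cnn2 (-1.73 ± 0.33, adjusted p = 0.00360) and the actin crosslinker Actn1 (-2.70 ± 0.80) fell in every lymphoma. Macrophages and neutrophils also express Anxa1 and Lgals3; in mPTCL 3 and 7, with neutrophil marker means of 5.92 and 5.99 but Chil3, a gene of both cell types, at 11.26 and 7.26, Anxa1 was at 10.96 and 9.79 and Lgals3 at 11.31 and 8.86. Without the lymphomas high in neutrophil markers 7 members of the list were higher, and the calls of Tubb6 (adjusted p = 0.0526) and Actn1 were lost. The part of those cells was not tested further. When a resting array was left out 5 to 7 members were higher, with Lmna lost without resting replicate 1 or 3 and Actn1 without each of the 3 and without mPTCL 8.

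Among the other largest increases, E2f8 apart, was Cip2a, an inhibitor of the phosphatase PP2A, which was 20.6-fold higher. Ptgr1, a prostaglandin reductase, read 6.84, 6.52 and 5.71 in resting cells and 9.55 to 12.32 (median 11.26) in lymphomas, 27.5-fold higher (4.78 ± 0.48, adjusted p = 8.76e-05). Fgl2, a fibrinogen-like protein made by T cells, rose 29.8-fold (4.90 ± 0.69, adjusted p = 0.000553). Adssl1, a muscle form of adenylosuccinate synthase, was at or near the floor in resting cells and within 9.08 to 10.61 in lymphomas, at least 26.4-fold higher (adjusted p = 6.92e-06). The adaptor Gab2, the sulfatase Sulf2 and Spats2 rose from the floor or just above it by at least 20.4-fold, 27.4-fold and 27.3-fold, with wide spreads among lymphomas. Each of these 7 was higher in every lymphoma and was called with any 1 array left out, although Gab2 was not without the lymphomas high in neutrophil markers (adjusted p = 0.0551).

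Other large increases were on the lists of markers of other cells. Chil3, a chitinase-like protein of neutrophils and macrophages, was at least 56.1-fold higher, at 15.26 and 15.14 in mPTCL 4 and 5 and at 7.26 in mPTCL 7, just above the resting values of 5.00, 7.19 and 7.06. S100a9 was called too (at least 39.7-fold, adjusted p = 0.0496). The neutrophil list had 14 tested members, of which these 2 rose, with a median of 3.46. The calls of Chil3 and S100a9 were lost without any 1 resting array and without the lymphomas high in neutrophil markers, and that of S100a9 also without mPTCL 1, 2, 4, 5, 6, 8 or 9. Without mPTCL 3 the list had 8 members called and without mPTCL 7 it had 6, these being lymphomas with neutrophil marker means near the resting level, although Chil3 was at 11.26 in mPTCL 3. Hemgn, a nuclear protein of blood precursors on the erythroid list, was at least 21.3-fold higher and above all resting arrays in every lymphoma. It was highest in mPTCL 8 and 9, where the mean of erythroid markers, Hemgn included, was highest. It was also at 10.17 in mPTCL 7, whose erythroid mean of 7.11 lay within the resting range, and at 9.68 to 10.46 in activated T cells. Its call was lost without any 1 resting array. The call of the endothelial marker Pecam1, also made by lymphocytes and lower here by 3.21 ± 0.77, was lost in the same way. No B cell, macrophage or hepatocyte marker was called by limma, with 1, 0 and 0 members at an unadjusted p under 0.05. Only 2 of the 8 hepatocyte markers on the array were tested, and their mean was 9.11 in mPTCL 8 against 5.25 to 6.09 in resting cells. Of the 12 arrays, only lymphomas reached the signal of 100 for Alb, so that mean is partly built in. Over all 8 markers the highest lymphoma mean was 7.76, against 5.18 to 5.66 in resting cells. Markers high in only a few lymphomas can fail this test, so the lack of a call does not show that such cells were absent. The part of these cells in the differences above was not tested beyond leaving lymphomas out.

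Some genes that did not pass differed widely between tumours. The 10 uncalled genes with the largest spread among lymphomas, whose resting mean lay inside the lymphoma range, were picked by that spread and are described without a test. Cd163l1, a scavenger receptor of gamma delta T cells, read 12.75, 14.41 and 12.25 in mPTCL 1, 3 and 4 and was at or below 7.81 elsewhere, with 10.01, 9.00 and 8.95 in resting cells. Sox4, a transcription factor of immature lymphocytes, was high in the same 3 lymphomas (12.50, 13.50 and 12.30) and at the floor in mPTCL 2, 6 and 7. Endou was high there as well and in mPTCL 5 (12.46 to 13.58), against 5.00 to 7.35 in resting cells. Klrc1 and Klre1, NK cell receptor genes, were both highest in mPTCL 2, 6, 8 and 9 apart from Klrc1 in mPTCL 1 (12.75), and both were at or near the floor in mPTCL 3, 4 and 7. Tdrd9, a germ cell helicase, was at or near the floor in resting cells and in 5 lymphomas but at 13.31, 12.55, 11.01 and 9.64 in mPTCL 2, 8, 6 and 1. Gzmk, granzyme K, ranged from the floor in mPTCL 3 to 14.77 in mPTCL 2. Jchain, Pou2af1 and Ms4a1, genes of B cells or plasma cells, were highest in mPTCL 5 (14.65, 14.02 and 14.40), where B cell markers were highest. Pou2af1 and Ms4a1 are themselves on the B cell marker list, so their match with its mean is partly built in. In mPTCL 3, where the B cell marker mean was 7.68, Pou2af1 was at 11.97 and Jchain at 11.53, and in mPTCL 9, with a mean of 7.60, Pou2af1 was at 11.64.

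**Figure D4:**
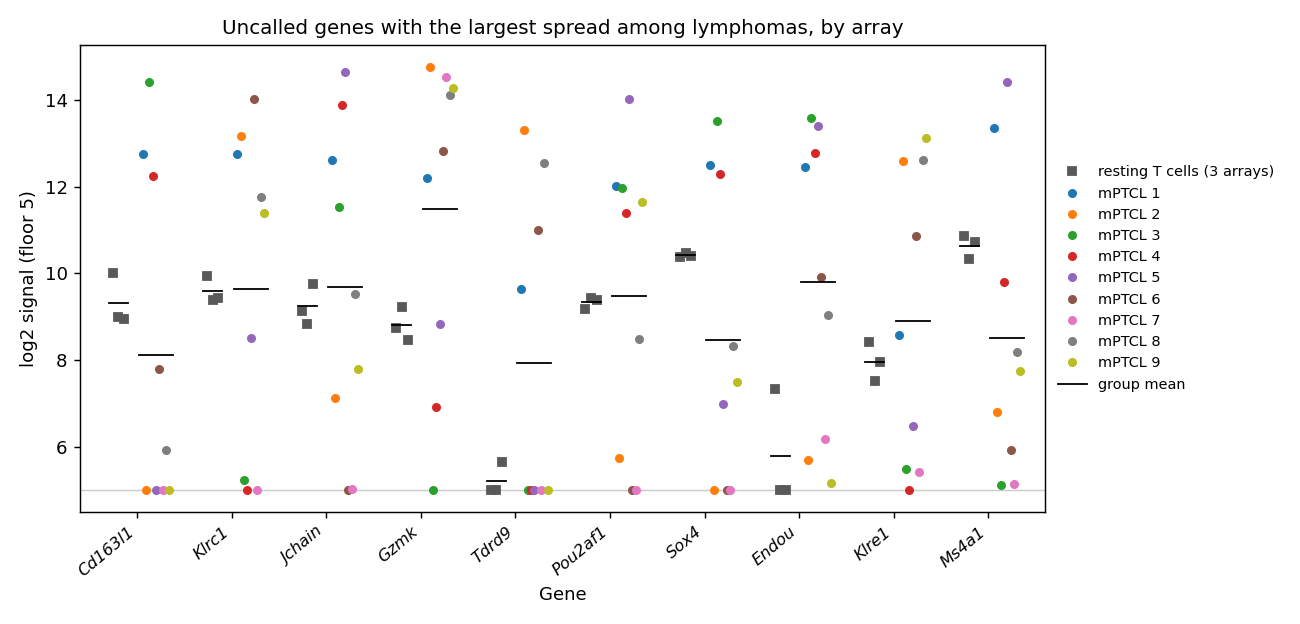
Log2 signal (floor 5) by array of the 10 uncalled genes with the largest spread among lymphomas, with resting arrays as grey squares, lymphomas in colour and a bar at each group mean. Sox4 and Cd163l1 are high in mPTCL 1, 3 and 4 and at or below 8.33 in the others, while Klrc1 and Klre1 are high in mPTCL 2, 6, 8 and 9, and Klrc1 also in mPTCL 1.

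Most but not all called genes reached 2-fold in each tumour, and since these same lymphomas gave the calls, large shares are built in. Of all 11450 genes tested, between 1721 and 2267 were at least 2-fold higher in a given tumour and between 1389 and 2773 lower. The share of the 840 higher genes that were at least 2-fold above the resting mean was 69.0% in mPTCL 4, the lowest, and 92.1% in mPTCL 2, the highest. For the 804 lower genes it ran from 66.2% in mPTCL 3 to 93.0% in mPTCL 6. mPTCL 4 and 5, with the 2 highest neutrophil marker means, had the smallest shares of higher genes, 69.0% and 72.5%, and whether the other cells account for that was not tested.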

How the data were processed

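The values are MAS5 intensity on a linear scale, computed by the authors with Affymetrix Expression Console (version 1.1 for the lymphomas, not given for resting cells), per the submitters' processing notes. Each array was found to have a 2% trimmed mean of 500. Per the labels' protocols, RNA of normal cells (50 ng) was amplified with a kit for 3′ in vitro transcription, and for the lymphomas no kit is named in the labels. No detection calls were used. Precision is limited by the number of arrays.

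The labels gave the groups. Values under 32 were set to 32 and log2 was taken. Of 45101 probe sets, 34958 had 1 gene symbol, 932 several and 9211 none, counting 64 controls. Those with 1 symbol were used, without controls (34945, of which 34741 matched RefSeq by gene identifier), giving 18193 genes, each taken from the probe set whose mean over all 15 arrays was highest. Genes that reached 100 in 3 or more of the 12 arrays (11450) were tested with limma 3.58.1 in R 4.3.3 (lmFit, eBayes with a trend). Genes were called at an adjusted p under 0.05 and at least 2-fold. Errors of differences are SE with n = 9 and 3. A fold is given as "at least" where the lower group has arrays at the floor and the higher has none. The fit was tested on simulated data.

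The members, the 32 gene lists and 8 lists of markers were chosen with earlier results of these data known. Named genes were the 15 largest increases and decreases among non-overlapping called genes (without predicted, sex-linked and receptor segment genes), up to 6 called members per list, at most 4 per direction, a fixed set, and the 10 uncalled genes with the largest spread among lymphomas. The alternatives were other floors, filters, scalings, choices of probe set and variance models, a replicate block, and leaving out each array. Leaving out the lymphomas high in markers of neutrophils or B cells was added after the data were seen.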

Additional observations from a re-analysis of the deposited data

Results flagged for a closer look

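In 171 named genes examined over the 9 lymphomas, 10 held a single tumour set apart from the other 8 by a gap wide for the range, where chance alone gives about 1 in 20, or 8.55. Alb, the liver protein albumin, was at 11.22 in mPTCL 8 and between 5.05 and 7.38 in the others. The checkpoint kinase gene Chek1 was at 9.13 in mPTCL 4 and between 10.23 and 11.24 elsewhere. Gzma was at 10.45 in mPTCL 5, against 13.35 to 15.59. Uhrf1 was at 10.13 in mPTCL 5, against 11.56 to 12.77. The Notch modifier gene Lfng was at 8.43 in mPTCL 5, against 10.09 to 10.85. Dcxr was at 7.28 in mPTCL 6, against 8.95 to 10.29. Rrm2b was at 7.99 in mPTCL 6, against 8.92 to 9.82. Traf1 was at the floor of 5 in mPTCL 3, against 7.99 to 9.37. The ganglioside synthase gene St8sia1 was at 7.82 in mPTCL 4, against 5.00 to 6.40, with 2 of the others at the floor. Tdrp was at 6.44 in mPTCL 6, against 5.00 to 5.17, with 6 of the others at the floor.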

How the results depend on the processing

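Genes called ran from 1367 without a filter to 2177 without the lymphomas high in B cell markers over the settings not named next, and no gene called in both a setting and the reported fit changed direction. Array weights per group gave 2710 calls, 1381 higher and 1329 lower. Leaving out 1 array gave 770 to 1834 calls, 455 to 948 higher and 314 to 898 lower, with 770 to 832 where the array was of resting cells. With a replicate block there were 956 calls, 593 higher and 363 lower, but same-numbered samples of the groups did not deviate together (correlations of -0.05, 0.04 and -0.01), so the numbers do not pair the samples. The share of calls that were higher was 51.1%, and 43.2% when the probe sets of a gene were averaged. Of 144 named genes called, 59 were called in all 29 alternatives, 3 (Aurkb, Cip2a and Izumo1r) in all but the 1 that gave them no value, and 82 were lost in at least 1, 23 of these only with 1 array fewer or the replicate block. Without the lymphomas high in neutrophil markers 40 named calls were lost, and without those high in B cell markers 6. The 40 include Cd40lg, Cd244a, E2f2, E2f7, Ezh1, Itgb3, Nsg2, Odc1, Pim2, Prps2, Scd2, Stat5b, Tnfrsf25, Traf1 and Xcl1. Among uncalled named genes, 12 were called in some alternative. Uqcrq, of complex III, had a difference of 1.19 that turned to -0.22 (adjusted p = 0.585) without probe sets that match several transcripts, where another of its probe sets is used.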

Other observations

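Notch pathway genes were divided, with 2 of 19 higher (10.5%), 3 lower (15.8%) and a median difference of 0.35. The shares over all genes tested were 7.34% and 7.02%. The target gene Hes1 was at least 4.83-fold higher (adjusted p = 0.0239) and the receptor gene Notch2 3.25-fold higher (adjusted p = 0.0137), in every lymphoma. Lfng, which modifies Notch receptors, read 12.26, 11.92 and 12.03 in resting cells and 8.43 to 10.85 in lymphomas (-1.91 ± 0.39, limma adjusted p = 0.00545), and Dtx1 (-2.51 ± 0.77) and the inhibitor Numb (-1.16 ± 0.28) fell too. Lfng was called in every alternative. The calls of Hes1 and Dtx1 were lost without any 1 resting array, that of Dtx1 also without mPTCL 2 or 8, that of Notch2 without resting replicate 2 or 3, and that of Numb without resting replicate 1 or 3. Those of Hes1, Dtx1 and Numb were also lost without the lymphomas high in neutrophil markers.

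Early response genes, which follow recent stimulation, gave 2 higher of 34 (5.88%, beside 7.34% of all genes tested), with a median of -0.08. Klf10 read 8.05, 7.60 and 7.82 in resting cells and 8.74 to 10.18 in lymphomas (1.62 ± 0.35, adjusted p = 0.00781), and the phosphatase gene Dusp5 rose by 2.27 ± 0.62. Klf10 was not called without resting replicate 2, nor Dusp5 without resting replicate 1 or 3, and the count was 4 without mPTCL 3 and 5 without mPTCL 9. Dusp5 was also not called without the lymphomas high in neutrophil markers. Of 15 cytokine and chemokine genes 3 fell. Il16, a chemoattractant for CD4 cells, read 13.74, 13.83 and 13.75 and 10.44 to 12.82 (adjusted p = 0.00244) and was called in every alternative. Il21 and Xcl1 fell by 1.92 ± 0.61 and 1.90 ± 0.53, and these 2 calls were lost without any 1 resting array, that of Il21 also without mPTCL 2, 3, 4, 6, 7, 8 or 9.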
